A study of Homo sapiens with 6 samples.

Results

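The genes described here are the D-type and E-type cyclins, 4 inhibitors of cyclin-dependent kinases (CDKs) and RB1, which act together on the passage of a cell out of the G1 phase of its cycle. Their members were chosen as every probe set on the Affymetrix HG-U133 Plus 2.0 array that the platform annotation names CCND1, CCND2, CCND3, CCNE1, CCNE2, CDKN1B, CDKN2A, CDKN2B, CDKN2C or RB1. The annotation gave 20 probe sets for 9 of these 10 genes, out of 54675 probe sets on the array, and CDKN2C is not analysed here. The cells were Hep3B, a line from a human hepatocellular carcinoma, and their RNA was read on 3 arrays of clone D20, stably transfected with the plasmid siSDHB against SDHB, and on 3 arrays of clone 2 of the control plasmid pU6, called pU6-2. SDHB is the iron-sulfur subunit of succinate dehydrogenase, and the question was how its stable silencing changes the expression of other genes in these cells. Both clones were kept in medium with 400 µg/ml G418 and 10% fetal bovine serum and were collected when nearly confluent. Each group is a single clone, so silencing and clone cannot be told apart. Nothing says that the arrays A, B and C of a clone came from separate cultures, and p-values therefore measure only the spread between these arrays, which may be technical. The SDHB transcript was not analysed here.

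In G1, D-type cyclins activate CDK4 and CDK6, and E-type cyclins activate CDK2, and these kinases phosphorylate the retinoblastoma protein encoded by RB1. Unphosphorylated RB1 protein holds E2F transcription factors inactive, and its phosphorylation frees them to switch on genes of S phase. Inhibitors of the INK4 family (CDKN2A, CDKN2B, CDKN2C and CDKN2D) bind CDK4 and CDK6, while those of the CIP/KIP family (CDKN1A, CDKN1B and CDKN1C) bind complexes of cyclins with CDKs. Hep3B is known as a line that lacks both functional p53 and functional RB1 protein.

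Promoter sequences are shown for CDKN2B and CDKN2A, neighbouring genes that were lower in D20 by both probe sets of CDKN2B and by 2 of the 3 of CDKN2A, and for CCNE1, which was higher. They are the 250 bases before the start of the transcript in RefSeq (GRCh38.p14), 5′ to 3′ on the strand of the gene, and capitals mark the GC box GGGCGG on either strand. CDKN2A has an entry for each of its starts, an upstream one for the transcript of p14ARF and a downstream one for that of p16INK4A. The windows are chr9:22009306-22009555 on the minus strand for CDKN2B, chr9:21995325-21995574 and chr9:21974858-21975107 on the minus strand for CDKN2A, and chr19:29811741-29811990 on the plus strand for CCNE1.
CDKN2B: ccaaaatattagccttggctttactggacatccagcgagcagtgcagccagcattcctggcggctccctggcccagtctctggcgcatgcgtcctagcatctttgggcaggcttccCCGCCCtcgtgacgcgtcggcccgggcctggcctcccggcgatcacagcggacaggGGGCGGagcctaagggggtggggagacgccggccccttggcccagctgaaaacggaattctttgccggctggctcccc
CDKN2A, upstream start: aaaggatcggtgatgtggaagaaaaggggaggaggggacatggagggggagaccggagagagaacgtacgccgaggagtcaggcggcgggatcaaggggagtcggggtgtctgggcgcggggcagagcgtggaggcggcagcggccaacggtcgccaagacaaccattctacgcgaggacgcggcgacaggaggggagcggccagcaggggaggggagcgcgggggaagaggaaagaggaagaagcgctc
CDKN2A, downstream start: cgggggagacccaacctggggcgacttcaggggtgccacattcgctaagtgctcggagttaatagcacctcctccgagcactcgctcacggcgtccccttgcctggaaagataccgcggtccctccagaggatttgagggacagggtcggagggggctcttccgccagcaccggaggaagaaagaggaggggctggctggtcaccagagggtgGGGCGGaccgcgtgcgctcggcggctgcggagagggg
CCNE1: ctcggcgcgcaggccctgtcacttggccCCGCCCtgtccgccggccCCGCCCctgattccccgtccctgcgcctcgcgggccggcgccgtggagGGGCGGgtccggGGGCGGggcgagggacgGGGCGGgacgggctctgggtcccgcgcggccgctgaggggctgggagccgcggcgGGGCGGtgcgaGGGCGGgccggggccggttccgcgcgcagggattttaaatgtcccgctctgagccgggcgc

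The CCNE1 window held 7 GC boxes, that of CDKN2B 2, and those of CDKN2A 1 at the downstream start and 0 at the upstream start. A GC box was present in 42.6% of all 35116 windows of this length. The table had 12 windows for 7 of the 10 genes, and 8 of them held a GC box. The core of the E2F site, searched as TTGGCGC, its variant TTCCCGC, its variant TTGCCGC and its variant TTCGCGC on both strands, was in 1 of the 12 windows, a window of CDKN2C, and in 10.9% of all windows. The hypoxia response core, searched as ACGTG and its variant GCGTG on both strands, was in 7 of the 12 and in 43.2% of all windows. The 4 windows shown held no E2F core, and the hypoxia response core was in both CDKN2A windows and in neither of the others. The RB1 entry lies at an internal start of the gene and is not shown.

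The value of a probe set is its MAS5 signal, a brightness on a linear scale. The trimmed mean signal was 500.1 on each array, with 2% of values cut at either end, and the median between 77.7 and 92.4. Pearson's r of log2 values, taken over probe sets (no replicates of one another), was 0.943 to 0.952 within D20, 0.954 to 0.957 within pU6-2 and 0.908 to 0.919 from one clone to the other. Of a list of hepatocyte and hepatocellular carcinoma markers, 8 of 10 genes fell in D20 and 1 rose, FGB (6569 and 2004.5 in the means of D20 and pU6-2). Beside this and the following lists, 19.5% of all probe sets tested were called higher and 17% lower. The summed signal of the 10 genes was 106716 to 120132 in D20 and 252265 to 260364 in pU6-2. Albumin (ALB) stood at 43935 and 43678 in the means of D20 and pU6-2, and the fetal protein AFP at 403.5 and 20570. The 10 fibroblast markers summed to 4344 to 5149 in D20 and 1374 to 1541 in pU6-2, with COL1A1 (3780 and 1.23 in the means) the called rise and LUM and PDGFRA the called falls among 8 tested. COL1A1 alone made that rise: without it the sum was 904.3 to 1280 in D20 and 1372 to 1540 in pU6-2, lower in D20. The 6 blood cell markers summed to 247.0 to 258.9 in D20 and 4006 to 5329 in pU6-2, but to 223.3 to 252.9 and 325.8 to 470.4 without LYZ, the 1 called gene of the 4 tested (11.8 and 4332 in the means). COL1A1 was bright enough to be tested through its D20 arrays alone. LYZ and LUM (8.3 in D20 and 160.4 in pU6-2 in the means) were so through their pU6-2 arrays alone. The 6 endothelial markers summed to 283.8 to 407.1 in D20 and 145.1 to 315.4 in pU6-2, with PECAM1 called higher (213.1 and 62.5 in the means) among 2 tested. The 6 biliary markers summed to 21007 to 23749 in D20 and 19579 to 20423 in pU6-2, with KRT19, EPCAM and SPP1 called higher and SOX9 lower among 5 tested. Without EPCAM that sum was 6588 to 6808 in D20 and 7701 to 8792 in pU6-2, lower in D20. PTPRC, CD3E, CDH5, VWF and KDR, which define blood cells and endothelium, were too dim to be tested. The part of these shifts in the results was not tested. The ratio of the 3′ to the 5′ control probe set of GAPDH was 1.11 to 1.25 in D20 and 1.08 to 1.15 in pU6-2, and that of ACTB 1.40 to 1.68 and 1.42 to 1.90.

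Cyclin E transcripts and cyclin D3 were higher in D20, cyclin D1 and the INK4 inhibitor CDKN2B were lower, and CDKN1B and RB1 did not pass the test. CCNE2 rose on both its probe sets, at log2 fold changes (D20 over pU6-2) of 2.15 and 2.34, and CDKN2B had the largest fall of the members tested, at -2.78. Of the 20 probe sets, 15 were bright enough to be tested. By limma, with p-values adjusted by Benjamini-Hochberg across the whole array and a threshold of 0.05, 6 of the 15 were called higher and 5 lower. Over all 32768 probe sets tested 36.5% were called, 19.5% higher and 17% lower. Higher ones made up 53.5% of the calls, 73.4% with spike-in scaling and 42% with median centring, and the median of all probe sets was 0.25 and -0.09 under these, while the members stood at 6 higher and 5 lower under both. The arrays of the clones did not overlap for 12 of the 15, against 47.2% of all probe sets tested. The median log2 fold change of the 15 was -0.01 and of all probe sets 0.03, and the median of its size was 1.25 for the 15 and 0.44 for all. In bulk RNA, fewer cells with a transcript and less of it per cell cannot be told apart.

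**Figure D1:**
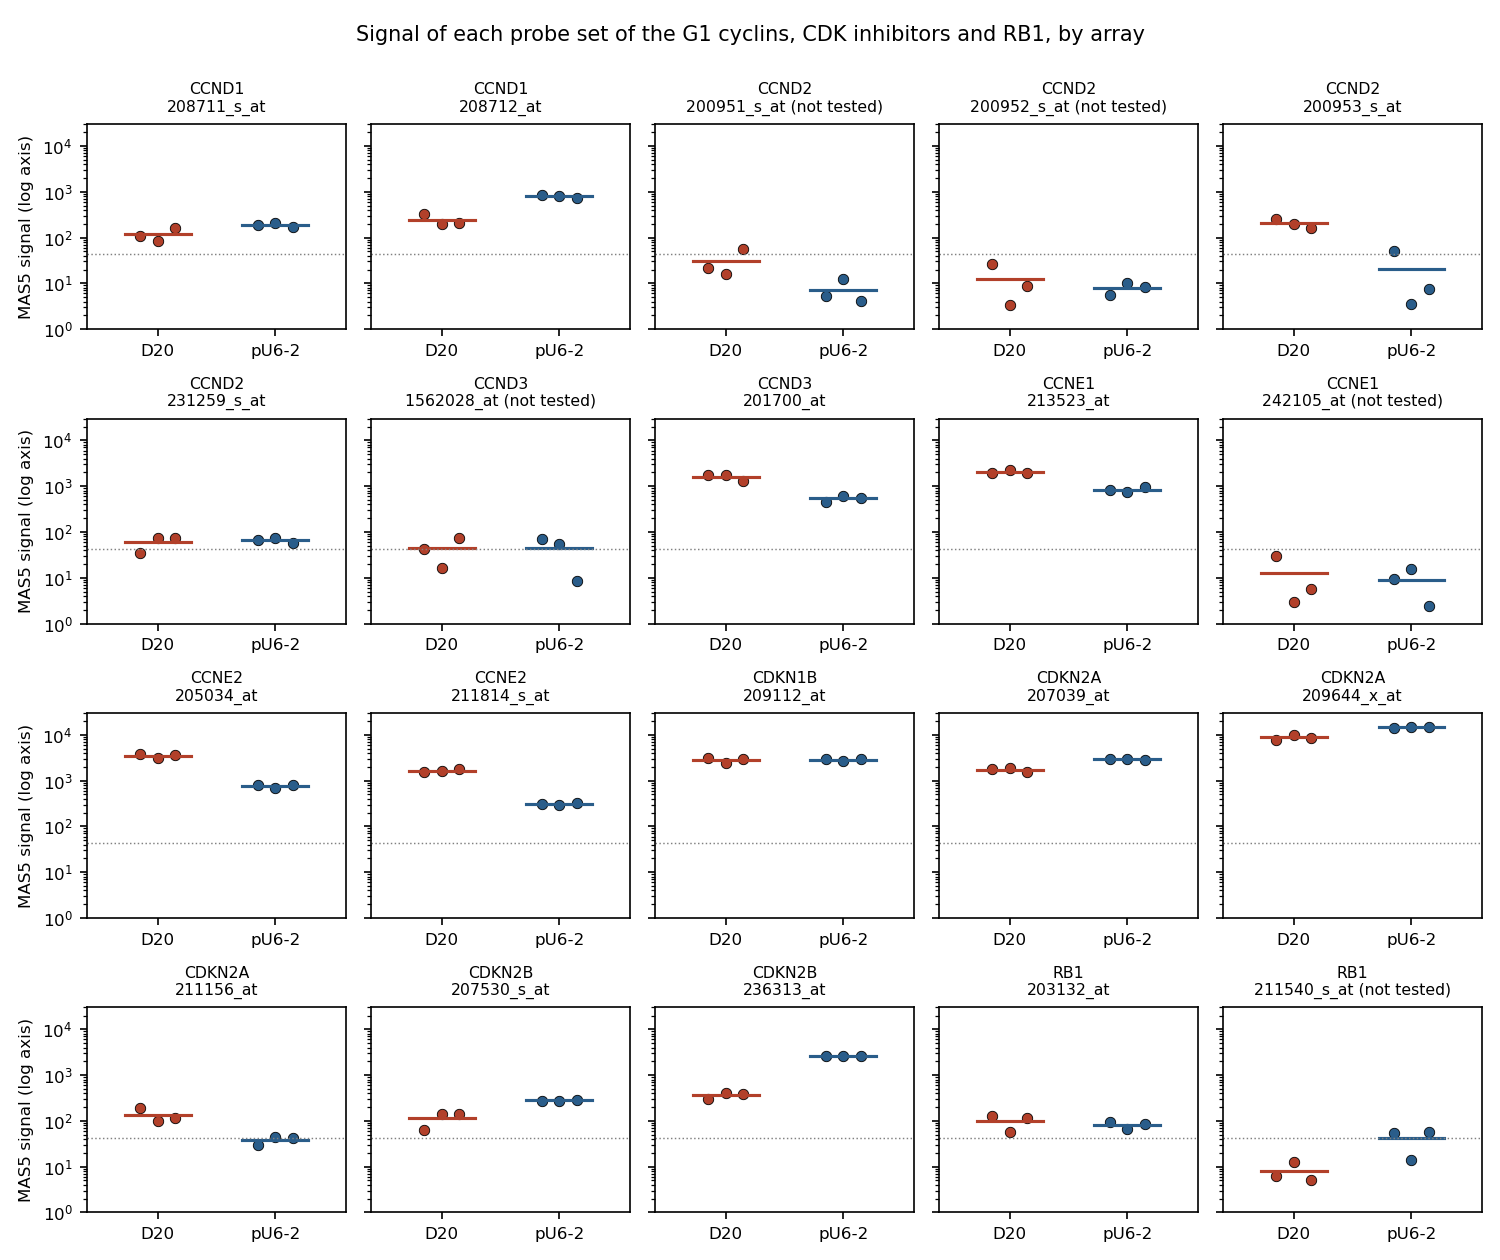
MAS5 signal (log axis) of each of the 20 probe sets on the 3 D20 arrays (red) and the 3 pU6-2 arrays (blue), with a bar at each clone's mean and a dotted line at 43.2, the lowest mean among the probe sets tested. CCNE1, CCNE2 and CCND3 lie higher in D20 by a probe set well above that line, CDKN2B lies lower by both probe sets, and RB1 is dim on both of its probe sets.

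Among the D-type cyclins, CCND1 was called lower by 1 probe set, and CCND2 and CCND3 were each called higher by 1. CCND1, cyclin D1, which is induced by mitogens and is an oncogene in many carcinomas, had signals of 325.9, 194.9 and 212.4 in D20, against 860.1, 820.8 and 732.2 in pU6-2 (probe set 208712_at). Every D20 array was below every pU6-2 array, and the log2 fold change was -1.69 ± 0.20 (SE), with an adjusted p of 2.2e-05 by limma. The other CCND1 probe set, 208711_s_at, had 109.5, 85.4 and 163.5 in D20 and 184.8, 205.3 and 173.9 in pU6-2. Its arrays did not overlap either, but at -0.63 ± 0.29 (SE) it did not pass the test (limma, adjusted p = 0.12).

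CCND3, cyclin D3, stood at 1768.9, 1768.9 and 1311.0 in D20, against 452.5, 615.7 and 560.1 in pU6-2 (201700_at). The D20 arrays were all higher, with a log2 fold change of 1.54 ± 0.16 (SE) and an adjusted p of 5.9e-06 by limma. The other CCND3 probe set, 1562028_at, was not tested, with a mean of 44.5 in both D20 and pU6-2 and a range of 8.3 to 74.0 over the 6 arrays.

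CCND2, cyclin D2, was dim on all 4 of its probe sets. Probe set 200953_s_at read 258.4, 192.6 and 161.2 in D20, against 49.6, 3.5 and 7.5 in pU6-2. It was called higher, at 2.80 ± 0.51 (SE) and an adjusted p of 8.0e-04 by limma, and it passed the filter on low values through its D20 arrays. Its size depends on the pseudocount of 16 added to each signal, being 4.01 with a pseudocount of 1 and 1.70 with 64. Probe set 231259_s_at did not pass the test, with 35.4, 73.8 and 73.9 in D20 and 67.2, 72.6 and 58.4 in pU6-2 (log2 fold change -0.13, limma adjusted p = 0.84). The remaining 2, 200951_s_at and 200952_s_at, were not tested. The first read 21.2, 15.6 and 56.1 in D20 and 5.2, 12.5 and 4.1 in pU6-2, and the second 25.9, 3.3 and 8.6 in D20 and 5.5, 10.0 and 8.3 in pU6-2. The first thus had D20 above pU6-2 on every array, at a low level, and the second overlapped.

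Both E-type cyclins, the partners of CDK2 late in G1, were higher. CCNE1, cyclin E1, had signals of 1927.1, 2249.5 and 1892.2 in D20, against 820.6, 762.6 and 939.6 in pU6-2 (213523_at). The clones were well apart, and the log2 fold change was 1.25 ± 0.12 (SE, limma adjusted p = 3.9e-06). CCNE2, cyclin E2, read 3742.3, 3079.6 and 3678.5 in D20, against 819.2, 706.6 and 792.0 in pU6-2 (205034_at). Its other probe set, 211814_s_at, read 1555.7, 1600.2 and 1782.4 in D20, against 310.4, 296.5 and 330.9 in pU6-2. The 2 probe sets gave log2 fold changes of 2.15 ± 0.11 and 2.34 ± 0.13 (SE), with limma adjusted p of 1.7e-08 and 2.9e-08, and ratios of mean signals of 4.53 and 5.27. The further CCNE1 probe set, 242105_at, was not tested, at 29.2, 3.0 and 5.6 in D20 and 9.2, 15.5 and 2.4 in pU6-2.

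**Figure D2:**
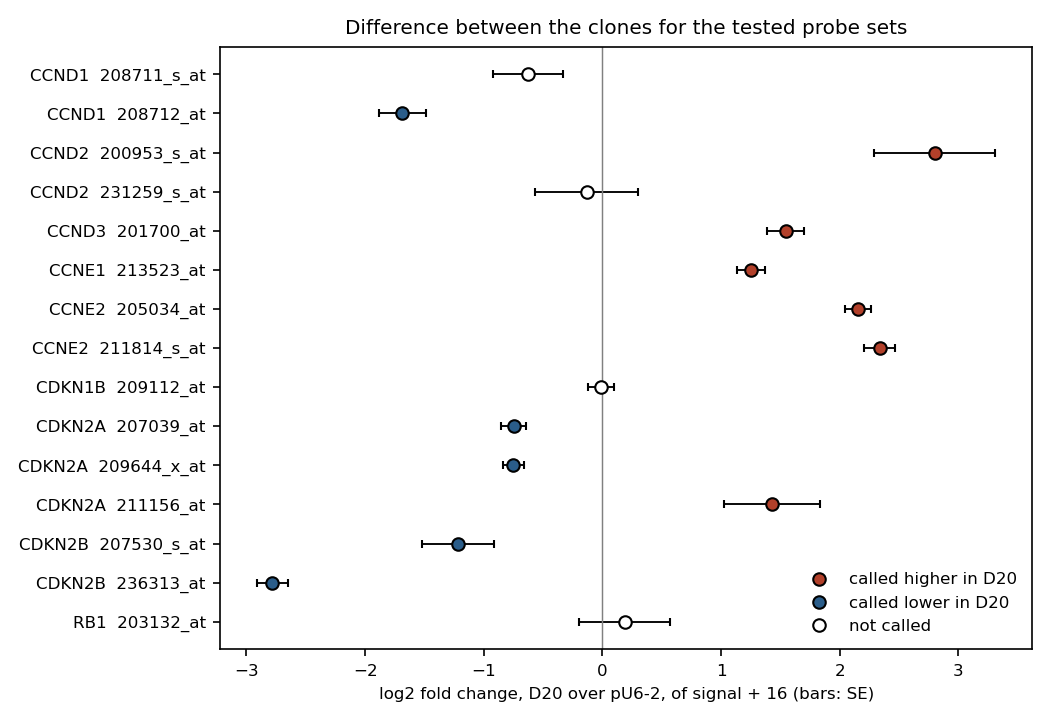
Log2 fold change, D20 over pU6-2, of the 15 tested probe sets on the scale of log2(signal + 16), with bars for the standard error and fills for the limma call. Cyclins E1, E2 and D3 lie to the right, CDKN2B and 1 probe set of CCND1 to the left, and the 3 probe sets of CDKN2A on both sides.

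The INK4 inhibitors CDKN2A and CDKN2B lie side by side in the genome. CDKN2B, which encodes p15INK4B and is known as a gene induced by TGF-beta, had signals of 305.8, 400.1 and 378.4 in D20, against 2549.4, 2587.3 and 2554.0 in pU6-2 (236313_at). Every D20 array was below every pU6-2 array, the mean of pU6-2 being 7.09 times that of D20, and the log2 fold change was -2.78 ± 0.13 (SE, limma adjusted p = 5.7e-09). The other probe set, 207530_s_at, read 64, 144.6 and 142.4 in D20, against 270.6, 275.0 and 290.5 in pU6-2. It was called lower too, at -1.22 ± 0.30 (SE, limma adjusted p = 0.0065). The difference between these 2 falls was not tested.

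CDKN2A encodes p16INK4A and, in another reading frame, p14ARF, which protects p53 from degradation. Its probe set 209644_x_at read 7857.6, 9885.7 and 8578.9 in D20, against 14444.0, 15133.1 and 14593.1 in pU6-2. Probe set 207039_at read 1763.6, 1929.0 and 1527.2 in D20, against 2934.8, 2998.9 and 2835.5 in pU6-2. Both had all D20 arrays lower and the same log2 fold change of -0.75, with SE of 0.09 and 0.10 and limma adjusted p of 2.5e-05 and 9.5e-05. The third probe set, 211156_at, went the other way at a low level, with 192.7, 100.4 and 114.5 in D20 against 29.4, 45.4 and 42.1 in pU6-2. It was called higher at 1.43 ± 0.41 (SE, limma adjusted p = 0.015), and not without array A of D20 (1.18, limma adjusted p = 0.087). With a pseudocount of 64 it was at 0.93, and it too passed the filter on low values through its D20 arrays. CDKN2A was the 1 gene of the 9 with probe sets called in both directions, the higher call resting on this dim probe set, and which of its transcripts each probe set reads was not analysed here. The antisense transcripts CDKN2A-AS1 and CDKN2B-AS1 were too dim to be tested.

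CDKN1B encodes p27KIP1, the CIP/KIP inhibitor of CDK2 complexes whose amount is set largely by protein turnover. It read 3169.8, 2392.4 and 2978.5 in D20, against 2906.6, 2690.9 and 2966.2 in pU6-2 (209112_at). The arrays overlapped, and the log2 fold change was -0.01 ± 0.11 (SE, limma adjusted p = 0.95). Its sign turned to 0.21 with the arrays scaled by their spike-in controls, again without a call.

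RB1 was dim in both clones. Probe set 203132_at read 125.5, 57.2 and 114.7 in D20, against 93.0, 65.8 and 87.1 in pU6-2, with overlapping arrays and a log2 fold change of 0.19 ± 0.39 (SE, limma adjusted p = 0.75). Probe set 211540_s_at was not tested, with 6.1, 12.6 and 5.1 in D20 and 54.8, 14.1 and 58.0 in pU6-2. This probe set lay lower in D20 on every array, at a low level throughout. Probe sets were tested from a mean of 43.2 upward, with a median of 312.7. LPAR6, a lysophosphatidic acid receptor whose gene lies inside RB1 in the RefSeq annotation, read 6.6, 49.4 and 44.3 in D20, against 520.6, 727.9 and 568.9 in pU6-2 (218589_at). It was called lower, at -3.79 ± 0.39 (SE, limma adjusted p = 6.6e-06), with dim D20 arrays, and it passed the filter on low values through pU6-2. The other LPAR6 probe set, 1557763_at, was not tested, with 37.5, 53.3 and 4.8 in D20 and 20.6, 23.1 and 4.1 in pU6-2, which overlap.

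Neighbouring genes were compared with each member, taking the 5 tested protein-coding genes on either side in RefSeq order. Around CDKN2A and CDKN2B 5 of 10 neighbours were called lower and 2 higher, with a median log2 fold change of -0.66, among them MTAP at -0.90 (1 of its 5 tested probe sets, the others not called), FOCAD at -1.64 and KLHL9 at -0.73 among the lower and MOB3B at 1.66 and IFT74 at 0.59 the higher. Around CCND1 5 were lower and 1 higher, with a median of -0.59, among them FGF19 at -2.11 and TPCN2 at -1.71, and CPT1A at 0.43 the higher one. CDKN2B lay lower than each of its 10 neighbours by 236313_at, and lower than all but FOCAD by 207530_s_at (-1.22). Around CCND2 the median was -0.75, with 4 lower and 1 higher, DYRK4 at 3.56, above CCND2 200953_s_at (2.80). The medians were near 0 around CCNE1 (0.00) and CCNE2 (0.07), with 2 higher and 0 lower for CCNE1 and 2 higher and 3 lower for CCNE2. The 2 higher around CCNE2 were ESRP1 at 2.97, above CCNE2 itself (2.15 and 2.34), and DPY19L4 at 0.69. Around CCND3 the median was -0.22, around CDKN1B 0.16 and around RB1 -0.15. For comparison, 42.1% of all 13781 genes tested by 1 probe set were called, 22.5% higher and 19.7% lower. A change in gene copy number was not tested.

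**Figure D3:**
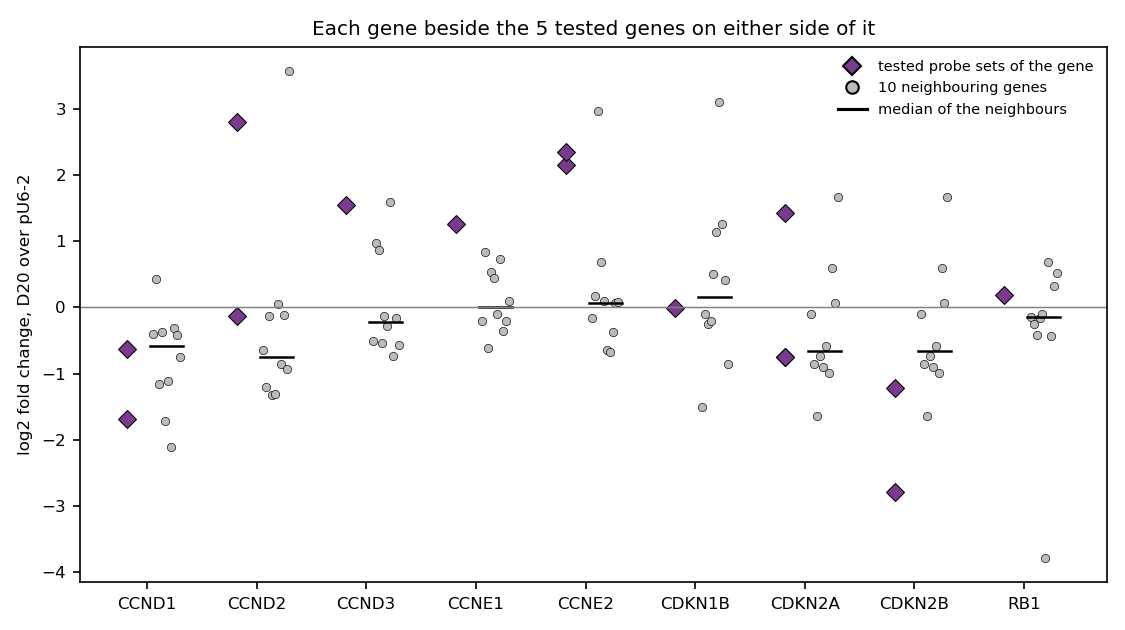
Log2 fold change, D20 over pU6-2, of the tested probe sets of each member (diamonds) and of its 10 neighbouring genes (circles, with a line at their median). The neighbours of CCND1, CCND2, CDKN2A and CDKN2B lie mostly below 0, those of CCNE1 and CCNE2 on both sides of it, and LPAR6, dim in D20, lies far below RB1.

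The other inhibitors of the same families were higher in D20, each taken by 1 probe set. CDKN1A encodes p21, the inhibitor of CDK2 complexes that p53 is best known to induce. It read 3769.1, 3939.8 and 3554.4 in D20, against 21.6, 104.5 and 129.9 in pU6-2. The clones were far apart, with a log2 fold change of 5.43 ± 0.37 (SE, limma adjusted p = 1.8e-07). It was 4.83 without array A of pU6-2 and 4.76 with a pseudocount of 64. CDKN1C, which encodes p57 and is imprinted, read 12097.0, 12555.2 and 11129.4 in D20, against 3150.0, 3403.3 and 3273.7 in pU6-2, a log2 fold change of 1.86 ± 0.08 (SE, limma adjusted p = 3.8e-09). CDKN2D, the INK4 inhibitor p19, was dim, with 142.3, 104.2 and 162.4 in D20 against 32.6, 66.3 and 45.7 in pU6-2. It was called at 1.26 ± 0.39 (SE, limma adjusted p = 0.022), and not without array A or C of D20 or array A or C of pU6-2, nor with no filter on low values, with limma adjusted p of 0.050 to 0.084 there. These 3 inhibitors thus rose, and CDKN2B and 2 of the 3 CDKN2A probe sets fell.

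Among the kinases and their activators, 2 of 7 genes rose and 2 fell, where 22.5% of all genes tested were called higher and 19.7% lower. With spike-in scaling 3 of the 7 rose and 0 fell. CDK6 averaged 3912.9 ± 615.1 in D20 and 2033.1 ± 173.8 in pU6-2 (SD, n = 3 each), a log2 fold change of 0.93. CDK4, the other partner of D-type cyclins, averaged 7687.6 ± 398.9 in D20 and 10807.5 ± 883.8 in pU6-2, a log2 fold change of -0.49. It was not called with spike-in scaling (-0.27). CDK2, the partner of E-type cyclins, was called lower at -0.43, and its call was lost without the variance trend (limma adjusted p = 0.11), with spike-in scaling (-0.21) and without array B or C of D20 or A or C of pU6-2. CDK7, of the CDK-activating kinase, rose (0.55). Its partners CCNH (-0.19) and MNAT1 (0.31) and the phosphatase CDC25A (-0.11) did not pass the test, though CCNH was called with median centring (-0.31) and MNAT1 with spike-in scaling (0.53). The RB1 relatives RBL1 (0.36) and RBL2 (0.43) did not pass it either. RBL1 and RBL2 were called higher without array B of D20 (0.61 and 0.72), and RBL2 also with spike-in scaling (0.65) and with the replicate block.

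Of 10 factors of the E2F and DP families, 5 rose and 2 fell. The activator E2F2 (0.88), the atypical repressor E2F7 (0.93) and the dimer partner TFDP2 (0.70) rose, and the other atypical repressor, E2F8, fell (-1.10). Of 25 E2F target genes of S phase entry 8 rose and 4 fell, or 12 and 1 with spike-in scaling, and their median change was 0.12 on the log2 scale, beside 0.04 over all genes tested. SLBP (1.03), which binds histone mRNA, MCM4 (0.86), of the replicative helicase, PCNA (0.64), the sliding clamp, and CDT1 (0.64), a licensing factor, rose. The 4 that fell were CCNA2 (-0.63), RRM1 (-0.47) and, of the same helicase as MCM4, MCM7 (-0.46) and MCM5 (-0.40). The CDT1 call was lost without the variance trend, without array A of D20 and without array B of pU6-2. Of 10 proliferation genes 0 rose and 3 fell by limma, with a median of -0.15, whereas 2 rose and 2 fell with spike-in scaling, with a median of 0.07. FOXM1 (-1.03), a transcription factor of G2 and mitosis, and the mitotic kinase PLK1 (-0.63) fell. TOP2A fell by 0.25 on the log2 scale, a call lost in 9 of 15 alternatives, and another of its 3 tested probe sets, 201291_s_at, was called higher (0.51). BIRC5 was not called by the probe set used (0.13), but 2 others of its 4 were called lower (-0.59 and -0.67). These calls came to 12 of 25 E2F targets and 3 of 10 proliferation genes, beside 42.1% of all genes tested.

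Of 14 genes for the turnover of G1 cyclins and p27, 7 fell and 0 rose, and the other 7 did not pass the test. Those counts were 5 and 2 when scaled on the spike-ins. SKP1 and CUL4A were not called by the probe set used, but each had another called lower (-0.38 and -0.39). DDB1 (-1.36), an adaptor of CUL4 ubiquitin ligases, UBAC1 (-1.0) and RNF123 (-0.81), the subunits of the ligase known as KPC that acts on p27, and CKS1B (-0.71), the cofactor of SKP2 in p27 recognition, fell. RNF123 was not called without the variance trend (limma adjusted p = 0.078) or without array B of pU6-2. Of 13 genes known to act upstream of D-type cyclins and CDK inhibitors, 5 rose and 1 fell, or 4 and 2 with quantile normalization, 3 and 2 with median centring and 6 and 1 with spike-in scaling. SMAD3 (1.11), a mediator of TGF-beta signals, ID2 (1.02) and ID1 (0.81), inhibitors of basic helix-loop-helix factors, rose, and TBX3 (-1.43), a repressor known to act on CDKN2A, fell. Over all lists outside the members 23 of 83 genes rose and 19 fell, where 22.5% of all genes tested were called higher and 19.7% lower.

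**Figure D4:**
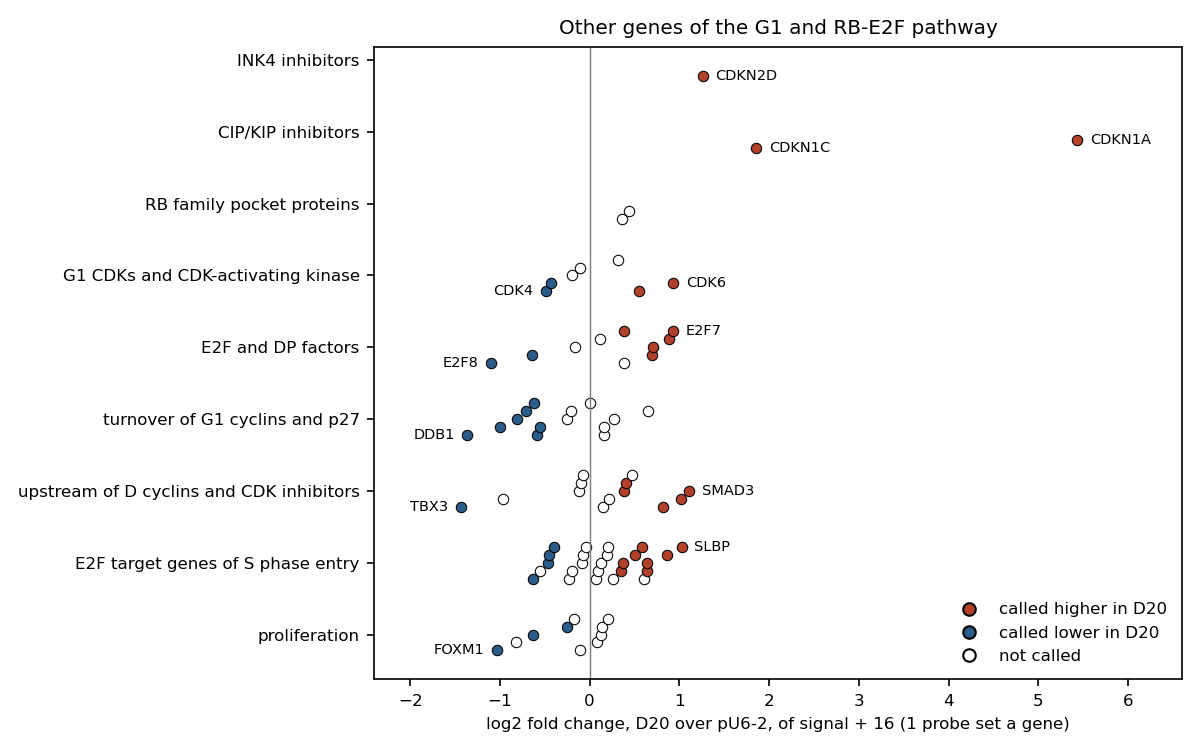
Log2 fold change, D20 over pU6-2, of the other genes of the pathway by list, 1 probe set a gene, filled by the limma call. CDKN1A stands at 5.43 on the far right. The inhibitor rows leave out the members, such as CDKN2B, and hold only CDKN1A, CDKN1C and CDKN2D, all called higher. The row for the turnover of G1 cyclins and p27 has called genes on the left alone, where spike-in scaling has 2 on the right.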

How the data were processed

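Total RNA (5 µg per the labels' protocols) of both Hep3B clones was read on Affymetrix HG-U133 Plus 2.0 arrays, 3 a clone. The deposited intensity of each probe set is linear, and was made by the authors with MAS5 per the submitters' processing notes. No version or scaling target is given in the sources used here, and no detection calls were used. Groups came from the sample titles.

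Names came from the platform annotation in GEO, with symbols brought up to date from RefSeq (GRCh38.p14). Of 54675 probe sets 41091 carried 1 symbol, 1801 several, 11721 none, and 62 were controls. One listed alias that RefSeq assigns to another gene was left out of the lists, the gene itself being listed by its current symbol. Signals were taken as log2(signal + 16), which understates the change of dim genes. Control probe sets stayed out, as did the dimmest 40% of the rest by mean over the 6 arrays (21845 probe sets, below 43.2). limma 3.58.1 in R 4.3.3 (lmFit, eBayes with a variance trend) compared D20 with pU6-2, two-sided, and the p-values of all 32768 probe sets were adjusted together (Benjamini-Hochberg). The fit was tested on simulated data. Other genes were represented by their brightest tested probe set, those not marked _x_at or _s_at first. This order took dim probe sets for AURKA (means of 50.0 in D20 and 91.1 in pU6-2), GINS2 (104.9 and 71.4) and CUL1 (89.5 and 94.6). Their other tested probe sets are not reported here. Of each list up to 4 called genes with the largest change are named, with all kinases and RB1 relatives. Marker lists use each gene's brightest probe set, tested or not. LPAR6, SKP1, CUL4A, BIRC5, AURKA, GINS2 and CUL1 were picked after their values were seen. So were the genes named beside CCND1, CCND2, CCNE2 and CDKN2B, the E2F targets named as lower, and the markers named or left out of a sum. The members and lists were chosen with earlier results of these data known. Alternatives changed the pseudocount, filter, normalization, variance model, replicate block and arrays used. The number of arrays limits the precision.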

Additional observations from a re-analysis of the deposited data

How the results depend on the processing

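Over 15 alternatives, 9 to do with processing and 6 that left out 1 array each, the 11 member probe sets that were called kept their direction wherever they were tested. Of the calls, that of CDKN2A 211156_at was lost without array A of D20, where its value was 1.18 (1.18 to 1.6 over the arrays left out). The count of members called higher was 4 to 6 and of those lower 5. It was 4 with the lowest 60% of probe sets left out, where CCND2 200953_s_at and CDKN2A 211156_at were not tested, as were RB1 203132_at and CCND2 231259_s_at. Over all probe sets 9609 to 12557 were called, against 11952, and 31 to 45 pathway genes, against 42. Uncalled values near 0 changed sign: CDKN1B was at 0.021 with quantile normalization, 0.21 with spike-in scaling and -0.095 to 0.11 with 1 array left out, and CCND2 231259_s_at at 0.084 with spike-in scaling and -0.27 to 0.13 with 1 array left out. Of the other named genes, CCNH was at 0.023 and CDC25A at 0.11 with spike-in scaling, and CDC25A at -0.37 to 0.14 with 1 array left out. Over all probe sets the median change was 0.03, and 0.25 with spike-in scaling and -0.09 with median centring. Of the probe sets called, 53.5% were higher, 73.4% with spike-in scaling and 42% with median centring. The replicate block, with the letters A, B and C, called 12557 probe sets, 6 members higher and 5 lower. What the letters mean is not stated. The deviations of same-lettered arrays correlated at -0.009, 0.02 and 0.004. D20 B correlated best with its own letter, and D20 A and C did not. Such small correlations cannot exclude a batch shared by a letter, because it could touch few probe sets. The cause of these changes was not tested.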
